A study of Homo sapiens with 6 samples.

Results

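The genes of the epidermal growth factor receptor (EGFR) family were read in MDA-MB-231 cells, a triple-negative human breast cancer cell line, treated with PCI-24781, a histone deacetylase (HDAC) inhibitor. The set held 9 of the 16623 genes in the files and was taken by gene name, and no threshold on their values entered the choice, though earlier results of these data were known when it was made. It comprised 3 receptors (EGFR, ERBB2 and ERBB3), 5 ligands (TGFA, HBEGF, NRG1, AREG and EREG) and the inhibitor ERRFI1. All 9 were found by NCBI Gene ID. The 6 libraries were made after 24 h and after 48 h in the solvent DMSO, in 100 nM PCI-24781 and in 200 nM PCI-24781. The cells of all 6 were grown attached in medium with fetal bovine serum, and the labels name no genetic change. Each condition had 1 library, so no difference below has a replicate check, none was tested for significance, and every comparison is between libraries.

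EGFR family receptors are tyrosine kinases of the cell surface that work in pairs. EGFR binds TGFα, amphiregulin, epiregulin and HB-EGF, ERBB3 binds neuregulins and has little kinase activity of its own, and ERBB2 has no known ligand and serves as the preferred partner of the others. The ligands are made as membrane proteins and are cut free by ADAM proteases, and the signal runs to the RAS-ERK and PI3K pathways. ERRFI1 (MIG6) is a feedback inhibitor that binds the kinase domain of EGFR. Triple-negative lines such as this one commonly carry EGFR and lack ERBB2 amplification.

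The deposited values are FPKM, fragments scaled to transcript length and sequencing yield, so levels of different genes can be set side by side. The depth, inferred from the steps between low values, was about 16400000 to 19000000 fragments per library. A change is the log2(FPKM + 1) of a treated library minus that of its time-matched DMSO library. Calls needed a 2-fold change and, in the treated or the DMSO library, 1 FPKM or more. The labelled cell line was checked against marker genes. VIM had between 1629.38 and 2053.39 FPKM and AXL between 333.36 and 486.08, while the estrogen receptor ESR1 was at or below 0.04 and the progesterone receptor PGR at or below 0.03. EPCAM, listed as low or absent in this line, was present at 2.26 to 4.70 FPKM. Of 8 markers of other cell types 6 were found. Their summed FPKM was 73.05 to 128.07 and was nearly all CD68 (69.59 to 126.20), with PTPRC at 0.76 to 1.01, PECAM1 at 0.38 to 2.33, CD3E at or below 0.04 and CDH5 at or below 0.03. CD68 is a lysosomal protein that is best known from macrophages and is also made by other cells. The sum was highest with 100 nM for 48 h (128.07) and in the 24 h DMSO library (120.15). These were also the libraries with the lowest AREG. The other markers did not share the CD68 pattern. In the same order, PTPRC had 0.77 and 0.81 FPKM in these libraries, and it was highest with 200 nM for 24 h (1.01). PECAM1 had 1.07 and 0.38 there and was highest with 200 nM for 48 h (2.33). Both markers were scarce, and the part of CD68-expressing cells in the AREG levels was not tested.

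The libraries did not fall in a simple order of dose. Over all genes tested, 1.35% were called higher and 0.131% lower with 100 nM for 24 h, and 4.49% higher and 1.48% lower with 200 nM for 24 h. After 48 h, 0.0608% were called higher and 0.408% lower at 100 nM, and 0.206% higher and 0.06% lower at 200 nM. The DMSO libraries also differed from each other, with 2.49% of genes higher and 0.131% lower after 48 h than after 24 h. Some levels did not follow the labels after 48 h. CD68, for instance, had 118.95, 84.72 and 70.77 FPKM with DMSO, 100 nM and 200 nM after 24 h, but 87.88, 126.20 and 69.59 in the libraries so labelled after 48 h. With the labels DMSO and 100 nM exchanged after 48 h, CD68, AREG, TGFA and ERBB2 would stand in dose order at both times. EREG, NRG1, HBEGF and EGFR were not in dose order after 24 h, which the exchange leaves as it is. ERBB3 had 3.56 FPKM in both libraries concerned. ERRFI1 stood in dose order at both times as labelled, and with the exchange it would not after 48 h, though these libraries differed little (170.77 and 177.43 FPKM). Gain or loss of dose order was not counted over all genes. The library labelled DMSO 48 h was also closer to 100 nM 24 h, which had 7 genes higher and 59 lower than it, than to the library labelled DMSO 24 h. The library labelled 100 nM 48 h had 184 genes higher and 29 lower than DMSO 24 h, fewer in all than the 286 and 15 between the libraries labelled DMSO. Fewer still differed from DMSO 48 h within that time, with 7 higher and 47 lower at 100 nM and 24 and 7 at 200 nM. Groups were kept as labelled. An exchange of the labels, time in DMSO and a peculiarity of either library cannot be told apart, and this bears on each 48 h comparison and on that between the DMSO libraries. The values against the DMSO library of the other time are given where they alter a call.

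AREG had the widest range of the 9 genes, and its neighbour EREG followed it in part. AREG and EREG lie beside each other on chromosome 4, in a cluster of EGF-type ligand genes. In the coordinates of the files, for which the submitters' processing notes name hg19, EREG (NCBI Gene ID 2069) spans chr4:75230860-75254477 and AREG (NCBI Gene ID 374) spans chr4:75310815-75320726, both on the plus strand. A gap of 56337 bases separates them. The promoters of the 3 genes with the widest range across the libraries are shown, since the study's agent acts on histone acetylation, which marks active promoters. Each line is the 250 bases before the RefSeq start of the gene in GRCh38.p14, with capitals for matches on either strand to the cAMP response element TGACGTCA, the AP-1 site TGANTCA, the TATA box TATAAA and the GC box GGGCGG.

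AREG, chr4:74444886-74445135, plus strand: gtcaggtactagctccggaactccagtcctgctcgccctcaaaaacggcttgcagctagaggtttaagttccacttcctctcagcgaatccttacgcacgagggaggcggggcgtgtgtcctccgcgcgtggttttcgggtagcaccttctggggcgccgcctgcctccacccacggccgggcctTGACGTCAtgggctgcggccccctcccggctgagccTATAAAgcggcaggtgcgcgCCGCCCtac
EREG, chr4:74364895-74365144, plus strand: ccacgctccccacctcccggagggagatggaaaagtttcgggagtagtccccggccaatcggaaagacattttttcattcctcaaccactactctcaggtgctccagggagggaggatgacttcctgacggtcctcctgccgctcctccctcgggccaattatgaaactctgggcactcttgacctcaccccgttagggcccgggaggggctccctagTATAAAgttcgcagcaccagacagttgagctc
ERRFI1, chr1:8026310-8026559, minus strand: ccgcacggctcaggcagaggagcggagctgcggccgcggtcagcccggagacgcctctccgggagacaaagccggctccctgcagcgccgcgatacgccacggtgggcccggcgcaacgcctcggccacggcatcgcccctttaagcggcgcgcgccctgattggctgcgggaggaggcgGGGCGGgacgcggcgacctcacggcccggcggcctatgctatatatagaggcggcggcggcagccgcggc

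The AREG window held TGACGTCA starting 65 bases before the start site, a TATA box at 29 bases and a GC box on the opposite strand at 9 bases. The EREG window held a TATA box at 32 bases, and the ERRFI1 window held 1 GC box at 70 bases. Only TATAAA was searched for as a TATA box, so the letters TATATATA near the end of the ERRFI1 window are not marked. The same letters occur in 1.65% (TGACGTCA), 10.7% (TATAAA) and 42.6% (GGGCGG) of the 35116 windows in the RefSeq promoter table. TGANTCA, found in 6.57% of them, was in none of these 3 windows. A match describes the letters and does not show that a factor binds there.

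AREG, which encodes amphiregulin, had an FPKM of 1.69 with DMSO, 9.50 with 100 nM and 18.75 with 200 nM after 24 h. After 48 h the values were 8.66 with DMSO, 3.42 with 100 nM and 23.40 with 200 nM. Both 200 nM libraries were above the other 4 libraries, and the 24 h DMSO library was the lowest. The log2 changes were 1.96 with 100 nM for 24 h and 2.88 with 200 nM for 24 h, and -1.13 with 100 nM for 48 h and 1.34 with 200 nM for 48 h, each past the 2-fold threshold. Counted from the highest change, AREG ranked 10 of 11475 genes with 100 nM for 24 h, 8 of 11660 with 200 nM for 24 h and 11 of 11665 with 200 nM for 48 h. With 100 nM for 48 h it ranked 31 of 11514 from the lowest. The level in the library labelled DMSO 48 h was 5.12 times that in the library labelled DMSO 24 h, a log2 change of 1.84, and was close to that with 100 nM for 24 h. The library labelled 100 nM 48 h was the one nearest to the 24 h DMSO library, so the doubt about the 48 h labels touches both the sign of the 100 nM change and the difference between the DMSO libraries. Against the DMSO library of the other time, the log2 change was 0.12 with 100 nM for 24 h and 1.03 with 200 nM for 24 h, and 0.72 with 100 nM for 48 h and 3.18 with 200 nM for 48 h. The 200 nM libraries were past 2-fold against either DMSO library, and the 100 nM libraries only against that of their own time. Between the doses, with no DMSO library involved, the level at 200 nM was 1.97 times that at 100 nM after 24 h and 6.84 times after 48 h. In bulk RNA, more cells that express AREG and more AREG RNA per cell cannot be told apart. The hg19 assembly is known to carry a near-identical second copy of AREG. The files list 1 AREG entry, and how reads from the copies were assigned is not given in the sources used here.

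The AREG values rested on about 38 fragments in the 24 h DMSO library, 205 with 100 nM for 24 h and 408 with 200 nM for 24 h, and on about 191, 77 and 457 after 48 h in the same order. These numbers come from the inferred depth and a transcript of 1240 bases. With 200 nM for 24 h the ratio to DMSO was 11.1, with a 95% interval of 7.98 to 16 (exact Clopper-Pearson on the fragments of the 2 libraries). With 100 nM for 48 h the ratio was 0.397, with an interval of 0.3 to 0.519. The intervals cover counting error only and not the variation between cultures.

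EREG, which encodes epiregulin, was near the lower end of expression. Its FPKM was 0.50 with DMSO, 1.51 with 100 nM and 1.41 with 200 nM after 24 h, and 1.53 with DMSO, 0.69 with 100 nM and 2.46 with 200 nM after 48 h. The 24 h DMSO library and the 48 h library of 100 nM were the lowest, as for AREG, but the doses after 24 h did not separate. The log2 changes were 0.74 and 0.68 after 24 h and -0.58 and 0.45 after 48 h, at 100 nM and 200 nM, and none passed 2-fold. The pseudocount of 1 holds these values down. As plain ratios of FPKM, EREG was 3.02 and 2.82 times its DMSO level after 24 h, and 0.451 and 1.61 times after 48 h. The counting intervals of these ratios, around estimates of 3.05, 2.85, 0.45 and 1.61, were 2.14 to 4.42, 1.99 to 4.14, 0.325 to 0.617 and 1.28 to 2.03, from about 43 to 184 fragments per library. The 48 h DMSO library was 3.06 times the 24 h DMSO library. Against the DMSO library of the other time, the log2 changes were -0.01 and -0.07 after 24 h and 0.17 and 1.21 after 48 h, so that EREG passed 2-fold only with 200 nM for 48 h.

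**Figure D1:**
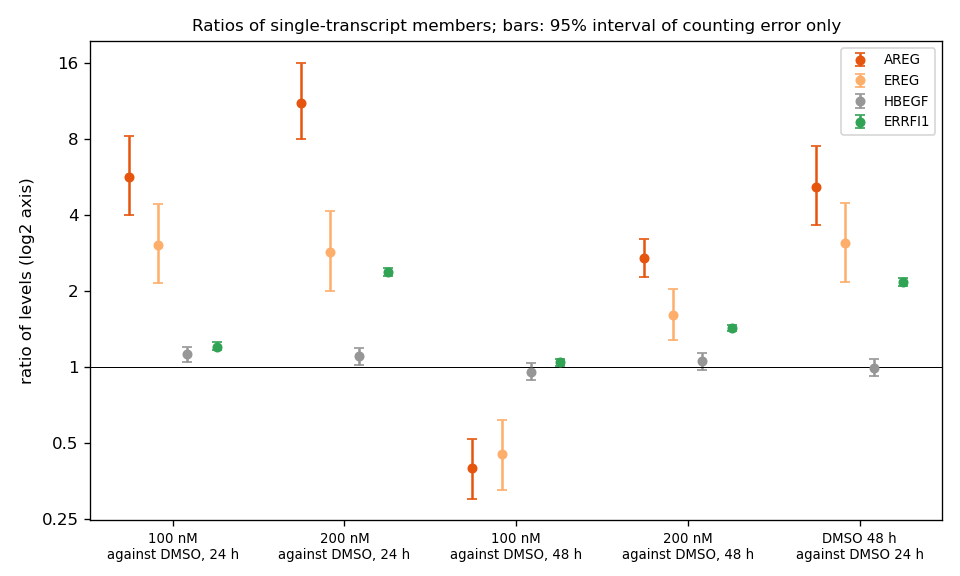
Ratio of levels between libraries on a log2 axis for AREG, EREG, HBEGF and ERRFI1, the members with 1 transcript in the files, in the 4 comparisons with DMSO and between the DMSO libraries. Points are ratios and bars are 95% intervals of counting error only; AREG reached 11.1 with 200 nM for 24 h and 0.397 with 100 nM for 48 h, and HBEGF stayed between 0.957 and 1.12.

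The other ligands were more abundant and differed less between libraries. TGFA (TGFα, NCBI Gene ID 7039, chr2:70674412-70781147, minus strand) had an FPKM of 26.75 with DMSO, 37.64 with 100 nM and 40.24 with 200 nM after 24 h. After 48 h the values were 38.37 with DMSO, 34.27 with 100 nM and 47.01 with 200 nM. Its lowest library was the 24 h DMSO library and its highest was the 48 h library of 200 nM, as for AREG and EREG. The log2 changes were 0.48 and 0.57 after 24 h and -0.16 and 0.29 after 48 h, none past 2-fold, and against the DMSO library of the other time they were -0.03 and 0.07 after 24 h and 0.35 and 0.79 after 48 h.

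NRG1 (neuregulin 1, NCBI Gene ID 3084, chr8:31497268-32622558, plus strand), a ligand of ERBB3, had a different order. Its FPKM was 17.80 with DMSO, 28.22 with 100 nM and 28.00 with 200 nM after 24 h, and 16.15 with DMSO, 13.28 with 100 nM and 19.52 with 200 nM after 48 h. The treated 24 h libraries were the highest, with no step between the doses, and the DMSO libraries lay close together. The log2 changes were 0.64 and 0.63 after 24 h and -0.26 and 0.26 after 48 h. None passed 2-fold, and after 24 h NRG1 ranked 534 of 11475 and 1329 of 11660 genes from the highest. Against the DMSO library of the other time the log2 changes were 0.77 and 0.76 after 24 h and -0.40 and 0.13 after 48 h, with each sign kept. The value sums 17 transcripts listed for the gene, which the files do not separate.

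HBEGF (HB-EGF, NCBI Gene ID 1839, chr5:139712428-139726188, minus strand) was the steadiest of the 9 genes. Its FPKM was 31.99, 35.73 and 35.26 after 24 h and 31.69, 30.34 and 33.16 after 48 h, in the order DMSO, 100 nM and 200 nM. The highest value was 1.18 times the lowest. Its log2 changes lay between -0.06 and 0.15 in the 4 comparisons.

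The make-up of the ligand transcripts differed between libraries, with AREG taking a larger share and HBEGF a smaller one where the sum was highest. The summed FPKM of the 5 ligands was 78.73 with DMSO, 112.6 with 100 nM and 123.66 with 200 nM after 24 h, and 96.4, 82.0 and 125.55 after 48 h. AREG made up 2.15%, 8.44% and 15.2% of this sum after 24 h and 8.98%, 4.17% and 18.6% after 48 h. HBEGF was the largest share in the 24 h DMSO library (40.6%) and TGFA in the other 5 libraries (32.5% to 41.8%). The HBEGF share ran from 26.4% to 40.6% although its level was steady, the NRG1 share ran from 15.5% to 25.1%, and EREG stayed at or below 1.96%. These are shares of transcript levels and say nothing of shed protein.

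**Figure D2:**
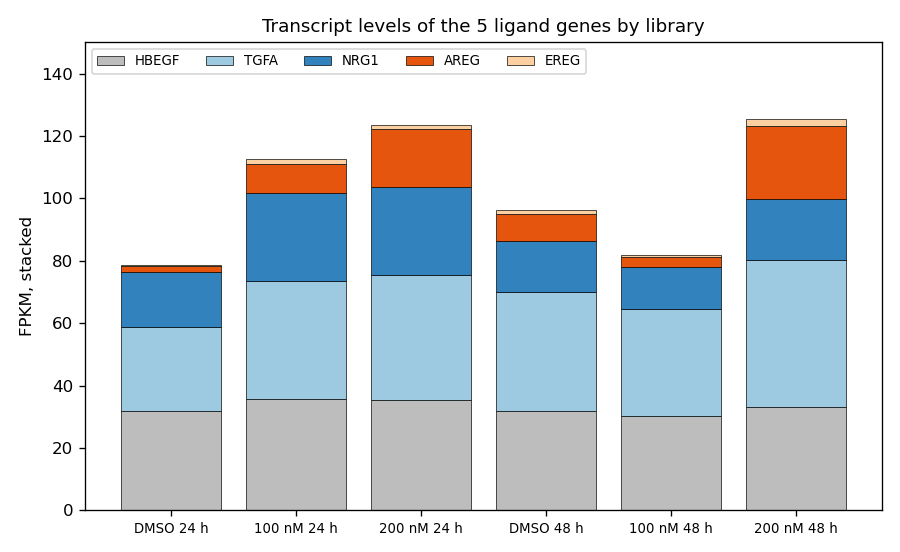
FPKM of the 5 ligand genes stacked for each of the 6 libraries, 1 library per condition. The AREG segment was thinnest in the 24 h DMSO library (1.69 FPKM) and thickest with 200 nM for 48 h (23.40 FPKM), while the HBEGF segment stayed between 30.34 and 35.73 FPKM.

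Among the receptors, EGFR was the most abundant in every library, followed by ERBB2 and then ERBB3. EGFR (NCBI Gene ID 1956, chr7:55086725-55275031, plus strand) had an FPKM of 44.98 with DMSO, 42.93 with 100 nM and 49.77 with 200 nM after 24 h, and 35.12, 35.93 and 37.64 after 48 h in the same order. The 3 libraries of 24 h were above the 3 of 48 h. The log2 changes with PCI-24781 were -0.07 and 0.14 after 24 h and 0.03 and 0.10 after 48 h, smaller than the change of -0.35 between the DMSO libraries.

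ERBB2 (HER2, NCBI Gene ID 2064, chr17:37844337-37884915, plus strand) had an FPKM of 21.36 with DMSO, 16.47 with 100 nM and 13.16 with 200 nM after 24 h. After 48 h the values were 17.05 with DMSO, 20.69 with 100 nM and 14.52 with 200 nM. The 24 h DMSO library and the 48 h library of 100 nM were the highest and the 200 nM libraries the lowest, nearly the reverse of the order for AREG. The log2 changes were -0.36 and -0.66 after 24 h and 0.27 and -0.22 after 48 h, none past 2-fold. With 200 nM for 24 h, ERBB2 ranked 634 of 11660 genes from the lowest. The ratio of EGFR to ERBB2 levels was 2.11, 2.61 and 3.78 after 24 h and 2.06, 1.74 and 2.59 after 48 h, in the order DMSO, 100 nM and 200 nM.

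ERBB3 (NCBI Gene ID 2065, chr12:56473809-56497291, plus strand) was the scarcest receptor of the set. Its FPKM was 3.54, 3.86 and 5.72 after 24 h and 3.56, 3.56 and 4.66 after 48 h, in the same order. The 200 nM libraries were the highest at each time, and the 100 nM libraries lay near DMSO. The log2 changes at 200 nM were 0.57 after 24 h and 0.31 after 48 h. The summed FPKM of the 3 receptors was between 55.73 and 69.88 in all 6 libraries, and the ratio of the ligand sum to the receptor sum ran from 1.13 in the 24 h DMSO library to 2.21 with 200 nM for 48 h.

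The feedback inhibitor ERRFI1 (NCBI Gene ID 54206, chr1:8071779-8086393, minus strand) was the most abundant of the 9 genes in every library. Its FPKM was 78.79 with DMSO, 94.78 with 100 nM and 187.13 with 200 nM after 24 h, and 170.77 with DMSO, 177.43 with 100 nM and 242.46 with 200 nM after 48 h. At each time the values stood in the order of dose, and the 48 h libraries were above their 24 h counterparts. The log2 changes were 0.26 and 1.24 after 24 h and 0.05 and 0.50 after 48 h, and only the change with 200 nM for 24 h passed 2-fold. The 48 h DMSO library was 2.17 times the 24 h DMSO library, a log2 change of 1.11. This difference between the DMSO libraries was nearly as large as the change with 200 nM after 24 h. Against the 48 h DMSO library, the 24 h libraries had log2 changes of -0.84 at 100 nM and 0.13 at 200 nM, and against the 24 h DMSO library the 48 h libraries had 1.16 and 1.61. The dose step from 100 nM to 200 nM was 1.97-fold after 24 h and 1.37-fold after 48 h. Unlike AREG, ERRFI1 was not lower with 100 nM for 48 h than in the 48 h DMSO library. The ratio there was 1.04 (95% counting interval 1.01 to 1.07, from about 9648 and 10187 fragments).

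**Figure D3:**
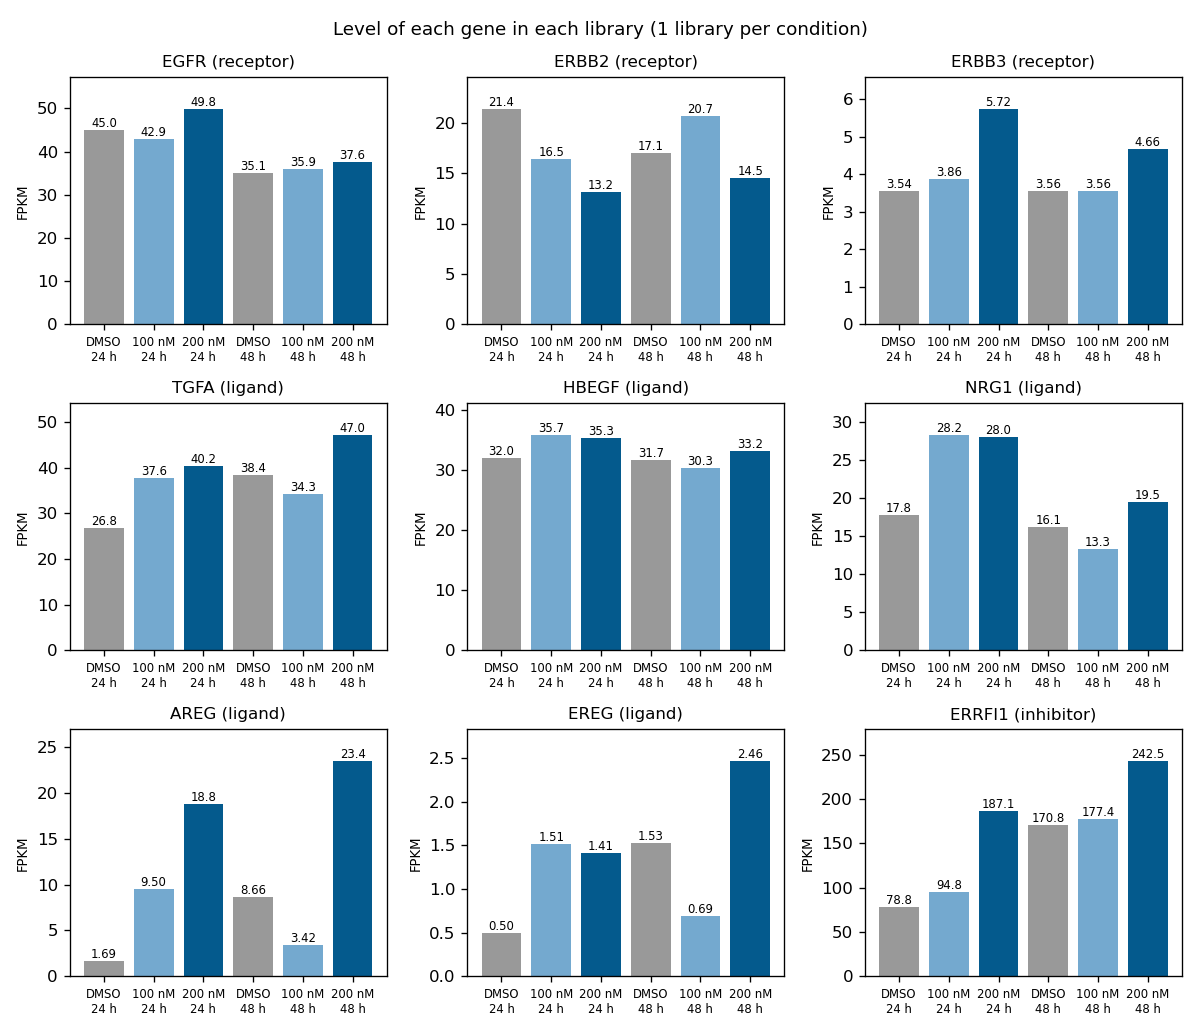
FPKM of each of the 9 genes in the 6 libraries, as bars from 0 on a separate scale for each gene, grey for DMSO, light blue for 100 nM and dark blue for 200 nM, 1 library per bar. AREG and EREG were lowest in the 24 h DMSO library and next lowest with 100 nM for 48 h, ERBB2 was highest in these libraries, and ERRFI1 was higher in every 48 h library than in the 24 h library of the same dose.

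Of the 9 genes, 1 was called higher and 0 lower with 100 nM for 24 h (AREG), against 1.35% and 0.131% of all genes tested. With 200 nM for 24 h, 2 were called higher (AREG and ERRFI1) and 0 lower, against 4.49% and 1.48%. With 100 nM for 48 h, 0 were called higher and 1 lower (AREG), against 0.0608% and 0.408%. With 200 nM for 48 h, 1 was called higher (AREG) and 0 lower, against 0.206% and 0.06%. Between the DMSO libraries, 2 were called higher after 48 h (AREG and ERRFI1) and 0 lower, against 2.49% and 0.131%. The median log2 change of the 9 genes was 0.26 at 100 nM and 0.57 at 200 nM after 24 h, and -0.06 and 0.29 after 48 h, beside medians of 0.01, 0.01, -0.01 and 0.01 over all genes tested. Counting changes of any size, 7, 8, 3 and 8 of the 9 genes were above DMSO in the same order. Both doses of a time point are set against 1 DMSO library, so these counts are not independent.

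**Figure D4:**
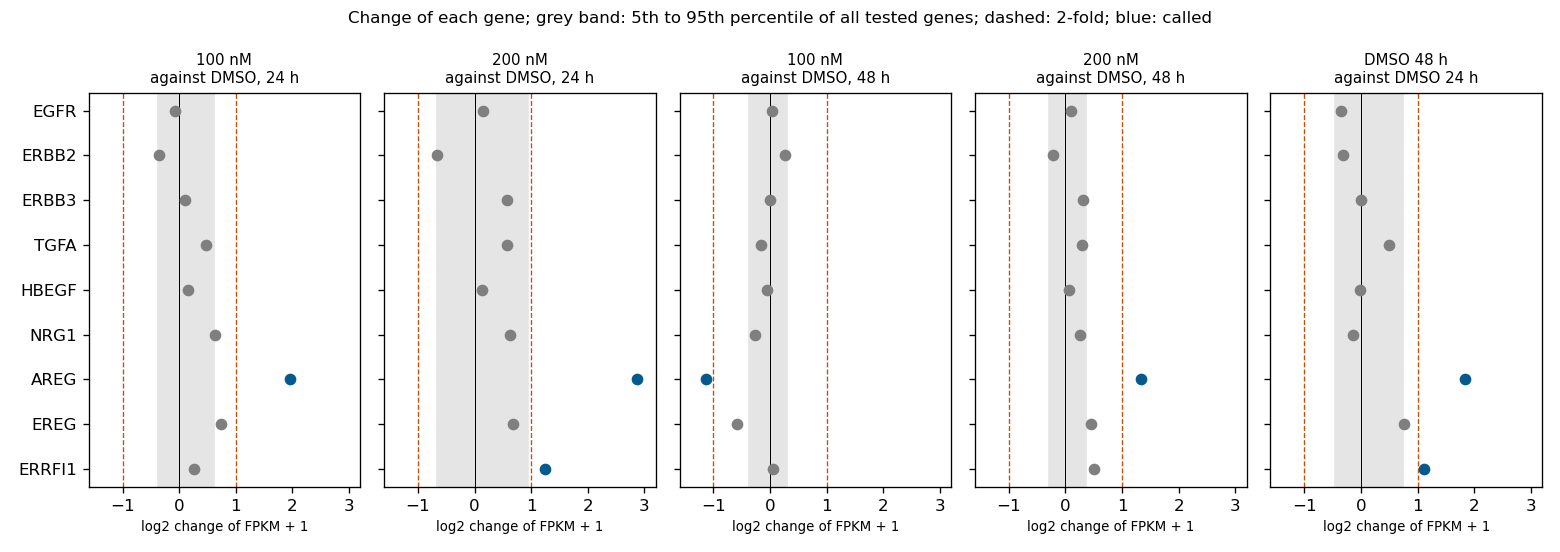
Log2 change of FPKM + 1 for each of the 9 genes (rows) in the 4 comparisons with DMSO of the same time and between the DMSO libraries (panels). Grey bands run from the 5th to the 95th percentile of all genes tested, dashed lines mark 2-fold and blue points are called genes; AREG lay outside the band and past 2-fold in all 5 panels, below 0 only with 100 nM for 48 h.

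Across the 6 libraries, the pattern of AREG in log2(FPKM + 1) was close to that of TGFA (Pearson r = 0.948) and EREG (r = 0.931) and opposite to that of ERBB2 (r = -0.961). With the other members, AREG had r = 0.774 (ERBB3), 0.677 (ERRFI1), 0.603 (HBEGF), 0.553 (NRG1) and 0.078 (EGFR). How many of all genes reach such values was not counted. NRG1 and HBEGF followed each other (r = 0.995), although HBEGF spanned only 1.18-fold. These values describe 6 libraries of 1 cell line, several of which share a dose or a time. Among 853 genes that reached 5 FPKM somewhere and varied at least 2-fold, the patterns closest to AREG were those of LSR (r = 0.997), GSTM3 (r = 0.996) and HPSE (r = 0.996). Those closest to EREG were USP53 (r = 0.999), P3H2 (r = 0.987) and KRT15 (r = 0.982). Those closest to ERRFI1 were MT1X (r = 0.986), PSAP (r = 0.984) and THEMIS2 (r = 0.980), and those closest to NRG1 were GTF2F2 (r = 0.988), LIMA1 (r = 0.973) and CHML (r = 0.970).

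The remaining genes of the family were scarce. ERBB4, the fourth receptor, had an FPKM of 0.02 to 0.12, and of the other ligands EGF had 0.40 to 0.75, BTC 0.16 to 0.73, EPGN 0.04 to 0.09, NRG2 0.07 to 0.84 and NRG4 0.03 to 0.21. None of these 6 genes reached an FPKM of 1 in any library, and so 0 were tested. EPGN and BTC flank EREG and AREG on chromosome 4, at gaps of 48339 bases from EREG and 349242 bases from AREG. BTC (betacellulin) had 0.16, 0.19 and 0.26 after 24 h and 0.47, 0.19 and 0.73 after 48 h, and EPGN (epigen) had 0.09, 0.04 and 0.06 after 24 h and 0.07, 0.09 and 0.04 after 48 h. NRG3 was also listed but was not found by its symbol.

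Calls among genes around the receptors were few, as they were over all genes tested. With the family genes above, 56 genes of the wider pathway were listed, 55 were found and 47 were tested in each comparison. With 200 nM for 24 h, 1 was called higher and 1 lower, or 2.13% each, beside 4.49% and 1.48% of all genes. With 100 nM for 24 h and in both comparisons after 48 h, 0 were called in either direction, beside at most 1.35% of all genes. Between the DMSO libraries only EGR1 was called, higher after 48 h (2.13%, beside 2.49% of all genes). The gene called lower was PIK3CA, the catalytic subunit of PI3K, with an FPKM of 13.21 with DMSO, 9.61 with 100 nM and 5.24 with 200 nM after 24 h, and 12.74, 12.42 and 11.14 after 48 h. The gene called higher was EGR1, an immediate early transcription factor induced by ERK, with 0.66, 2.07 and 3.82 after 24 h and 4.11, 3.10 and 4.21 after 48 h. Its level with 200 nM for 24 h (3.82) was not above the 48 h DMSO library (4.11). The call therefore holds only against the 24 h DMSO library.

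Of the proteases that release the ligands, ADAM9, ADAM10 and ADAM17 were expressed throughout, and ADAM12 stayed below the floor at 0.26 to 0.94 FPKM. ADAM17, the main sheddase of amphiregulin, had an FPKM of 18.20, 19.79 and 21.42 after 24 h and 25.29, 24.33 and 29.93 after 48 h, in the order DMSO, 100 nM and 200 nM. ADAM10 had 35.37 to 49.22 and ADAM9 68.32 to 94.08. The list tested 5 genes, these 3 and RHBDF1 and RHBDF2, which encode inactive rhomboid proteins that regulate ADAM17. Of the 5, 0 were called in any comparison, beside 0.06% to 4.49% of all genes per direction. Against DMSO, at 100 nM and 200 nM after 24 h and then after 48 h, the list median was 0.11, 0.22, -0.05 and -0.09.

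Among 9 tested genes that restrain the receptors besides ERRFI1, 0 were called. A count of 0 does not set so short a list apart, with 0.06% to 4.49% of all genes called per direction. The ubiquitin ligase CBL stayed between 12.29 and 13.38 FPKM and the phosphatase PTPN1 between 42.29 and 58.81. The 12 adaptor and proximal signalling genes had list medians of -0.07, -0.12, 0.03 and -0.02, with GRB2 between 49.11 and 63.00 and SHC1 between 74.23 and 101.58. The 8 genes of receptor endocytosis had medians of 0.02, 0.13, 0.06 and 0.04, with 0 called beside the same shares of all genes.

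Of the 13 ERK targets and feedback genes, 11 were above DMSO with 100 nM for 24 h and 10 with 200 nM for 24 h. The list medians were 0.18 and 0.26, beside 0.01 and 0.01 over all genes tested. After 48 h 8 and 6 were above DMSO, with medians of 0.06 and -0.06, beside -0.01 and 0.01. Between the DMSO libraries 12 of the 13 were higher after 48 h, with a median of 0.29, beside -0.003. The ERK phosphatase DUSP6 had an FPKM of 45.07, 57.38 and 66.39 after 24 h and 70.56, 71.46 and 81.72 after 48 h. FOSL1, an AP-1 subunit, had 548.45, 439.64 and 318.45 after 24 h and 428.43, 527.54 and 281.31 after 48 h, log2 changes of -0.32, -0.78, 0.30 and -0.61.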

How the data were processed

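RNA from 6 cultures of MDA-MB-231 cells was sequenced by a company after mRNA enrichment or rRNA depletion. The authors deposited gene-level FPKM, given to 2 decimals. The submitters' processing notes name Bowtie2, RSEM and hg19, without versions. The files hold 16623 genes, of which 16585 IDs matched a symbol in the RefSeq table of GRCh38.p14 and 38 did not.

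The members and lists were chosen with earlier results of these data known. Groups followed the sample titles. Log2(FPKM + 1) of each treated library was set against its time-matched DMSO library, with calls at 2-fold where 1 of the pair reached 1 FPKM. No p-value was calculated, since each condition has 1 library. Named genes were the 9 members, and genes of the wider lists that were called, had an FPKM of at least 10 or belong to the family. ADAM12, RHBDF1 and RHBDF2 of the sheddase list were also named, outside this rule. For each member with at least a 2-fold range, the 3 genes with the highest Pearson correlation over the 6 libraries were named.

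Depth was inferred from the spacing of low values in single-transcript genes of 500 to 1500 bases (226 to 281 genes per library; lengths from GENCODE release 29, less 50 bases) and is approximate. The scripts for calls and depth were tested on simulated data. Promoter sequences are from RefSeq, which held windows for 7 of the 9 genes. Alternatives were other pseudocounts, filters, scalings, thresholds and DMSO references. Python 3.11.15, numpy 2.4.6, pandas 2.3.3, scipy 1.17.1 and matplotlib 3.10.9 were used.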

Additional observations from a re-analysis of the deposited data

Results flagged for a closer look

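At 100 nM, 7 of the 9 genes differed from DMSO in opposite directions at 24 h and 48 h, with 1 library per condition, and the difference between the times was not tested. The log2 change was 1.96 at 24 h and -1.13 at 48 h for AREG, and 0.74 and -0.58 for EREG. It was 0.64 and -0.26 for NRG1, 0.48 and -0.16 for TGFA, and 0.15 and -0.06 for HBEGF. In the other direction, it was -0.36 at 24 h and 0.27 at 48 h for ERBB2, and -0.07 and 0.03 for EGFR. At 200 nM, 0 of the 9 genes had opposite directions at the 2 times. The 48 h signs at 100 nM rest on the labels DMSO and 100 nM after 48 h, and each would turn if these were exchanged. The 48 h signs at 200 nM were the same against the library labelled 100 nM 48 h. Whether the labels were exchanged was not tested.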

How the results depend on the processing

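No paired analysis was possible because no condition was sequenced more than once, and no replicate could be left out. At 100 nM 24 h, the number of the 9 genes called was 1. It was 2 with pseudocounts of 0.1 and 0.01 and with TPM, each adding EREG, 3 with a 1.5-fold threshold and 0 with DMSO 48 h as reference. At 200 nM 24 h it was 2, against 5 with a 1.5-fold threshold and 1 with DMSO 48 h or the mean of the DMSO libraries as reference. At 100 nM 48 h it was 1, against 2 with pseudocounts of 0.1 and 0.01 and 0 with the mean of the DMSO libraries, and with DMSO 24 h it was again 1 but ERRFI1, higher. At 200 nM 48 h it was 1, against 3 with DMSO 24 h and 2 with the mean of the DMSO libraries. The log2 change of AREG at 100 nM 48 h was -1.13 and turned to 0.72 with DMSO 24 h as reference. The other planned settings kept the number of calls within 1.5 times. Over all genes, with the DMSO library of the other time the calls went from 155 higher and 15 lower to 7 and 59 at 100 nM 24 h, from 523 and 172 to 101 and 144 at 200 nM 24 h, from 7 and 47 to 184 and 29 at 100 nM 48 h, and from 24 and 7 to 549 and 53 at 200 nM 48 h. Over the 4 comparisons in this sequence and then between the DMSO libraries (286 and 15), higher calls numbered 384, 880, 32, 103, 565 and lower calls 42, 283, 121, 25, 42 under the 0.1 pseudocount. Under TPM, higher calls numbered 332, 855, 21, 81, 492 and lower calls 34, 227, 88, 16, 39. Requiring 1 FPKM in both members of a pair left 99, 323, 2, 16, 200 higher and 10, 151, 29, 4, 11 lower. The causes were not tested beyond the construction of each setting. Smaller pseudocounts widen the changes of low genes by construction, which bears on EREG and AREG. Against the DMSO library of the other time, 11 of 36 changes had another sign, against 0 of 45 with either pseudocount and 1 of 45 with TPM and with median-of-ratios factors. At this depth, little can be read from genes under 1 FPKM, such as BTC and ERBB4.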
